A study of Mus musculus with 8 samples.

Results

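Interferon-stimulated genes were followed through immune cells of mouse skin wounds. The set is a named list of 45 genes, of which 44 had a row in the count tables, among 21742 genes with a row that are not mitochondrial. Mx2 had no row and was not analysed here. It holds genes known to be induced by interferon and was divided by role into the IFIT family (4 genes), antiviral effector enzymes, the ISG15 system, nucleic acid sensors and PYHIN proteins, transcription factors, the Schlafen family, interferon-inducible GTPases, chemokines, membrane proteins and 5 other genes. The 16 measured genes of the first 3 roles are called core genes here.

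CD45+ cells were sorted from full-thickness wounds of 5 mm on the backs of male C57BL/6J mice and profiled one by one on days 1, 3, 5 and 7 after wounding. The titles of all 8 libraries name CD45+, while their source names count up from CD45+ in the first to CD52+ in the control library of day 7, and the titles were followed. Diabetic mice had received streptozotocin (STZ), a toxin of the insulin-producing beta cell, at 120 mg/kg at 4 weeks of age, and were wounded once their blood glucose had passed the limit for diabetes. Control mice were wild-type animals of the same strain with the same wound and no diabetes. Each of the 8 libraries, 1 for each group and day, pooled cells of 5 mice, so a single day has no replicate and days stand in for replicates in every test of the groups. STZ models a loss of insulin in young mice, the pool hides the spread between animals, and p-values measure the spread between libraries of different days.

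The libraries held 38959 barcodes, of which 35215 were kept, with 19236522 to 33842509 unique molecular identifiers (UMIs, each a counted RNA molecule) per library. Levels are given in CPM (UMIs of a gene in 1000000 UMIs) of the same library and, where a class is named, of the same class of cells. The control library of day 5 stood apart: 28.5% of its barcodes had over 20% mitochondrial UMIs or too few genes, against 1.00 to 10.6% in the other libraries, its median cell held 8219 UMIs against 2573 to 5219, and 50.9% of its cells were macrophage-like and 8.22% neutrophil-like. In the diabetic library of day 5 these shares were 6.23% and 46.0%. Levels over all cells therefore mix cell types, and fewer cells of a type and less RNA per cell cannot be told apart in them. Group differences are therefore also given by class and, for some of the sets and tests below, without day 5.

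Type I interferons, chiefly interferon beta and the interferon alphas, bind a receptor of Ifnar1 and Ifnar2 chains, and the receptor's kinases activate a complex, with STAT2 and IRF9 among its parts, that binds the interferon-stimulated response element (ISRE) in promoters and switches on genes whose products block virus entry, degrade or tag foreign RNA, sense nucleic acids and restrain the signal. Interferon gamma has its own receptor and acts on a different site, the gamma-activated sequence (GAS). In skin, injury is known to evoke an interferon response without infection.

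The ISRE core can be read directly in many of these promoters. RefSeq windows of GRCm38.p6 from 250 bases before to 50 after a start site were found for 37 of the 44 genes, and 21 of the 37 (56.8%) held the letters GAAANNGAAA on either strand, against 1079 of 27025 genes (3.99%) overall. The GAS letters TTCNNNGAA were found in 5 of the 37 (13.5%), against 9.55% overall. All 5 sensors and PYHIN genes with a window held the ISRE letters, and so did Ifit1, Ifit3 and Ifit3b. Ifit2, Slfn1, Slfn2, Slfn4, Isg20, Irf7 and Cxcl9 were among those that did not within this window, which says nothing about sites elsewhere. Stretches around the match are shown, 5′ to 3′ on the strand of the gene with the matched letters in capitals, for genes on which the results turn. Ifit1 (chr19:34640755-34640843 on the plus strand) has a pair of matches, beginning at -104 and -85 from the start site, Rsad2 (chr12:26456533-26456602 on the minus strand) has 1 at -120, Isg15 (chr4:156200845-156200926 on the minus strand) has 3 that overlap from -78, Gbp2 (chr3:142620574-142620643 on the plus strand) has 1 at -59 and Ifitm3 (chr7:141010695-141010772 on the minus strand) has 2, at 2 and 19 past the start.
Ifit1: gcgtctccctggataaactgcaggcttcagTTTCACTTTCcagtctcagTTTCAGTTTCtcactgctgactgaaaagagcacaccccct
Rsad2: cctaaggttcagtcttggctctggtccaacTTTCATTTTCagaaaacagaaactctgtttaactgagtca
Isg15: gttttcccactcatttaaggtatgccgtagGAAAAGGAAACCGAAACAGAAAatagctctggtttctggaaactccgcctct
Gbp2: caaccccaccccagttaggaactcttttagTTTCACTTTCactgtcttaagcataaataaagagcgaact
Ifitm3: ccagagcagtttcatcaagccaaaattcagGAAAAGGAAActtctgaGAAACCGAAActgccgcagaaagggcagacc

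The neighbouring Ifit3 (chr19:34583343-34583446 on the plus strand) and Ifit3b (chr19:34607739-34607842 on the plus strand) carry the same 104 bases around their 2 matches, so a single line serves both. Their transcripts also overlap in sequence: 12.9% of the 75-base words in the last 400 bases of Ifit3 occur in Ifit3b, and reads could be split between them.
Ifit3: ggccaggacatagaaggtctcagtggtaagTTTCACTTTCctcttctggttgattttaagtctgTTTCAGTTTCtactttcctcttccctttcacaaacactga

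Summed over the 44 genes, the interferon-stimulated transcripts were at their highest on day 1 in both groups and below that level on each later day (exact Poisson 95% intervals, here and throughout, cover counting error only). In the diabetic libraries the sum was 13571, 6868, 6869 and 4476 CPM on days 1, 3, 5 and 7. In the control libraries it was 12278, 6490, 3686 and 4358 CPM. Day 1 stood above every later day in each group, by 1.98-fold over day 5 and 3.03-fold over day 7 in diabetic wounds and by 3.33-fold and 2.82-fold in control wounds. The same held for the 41 genes that remain without Slfn2, Ifitm3 and Slfn4, the genes with the most UMIs, which stood at 6489 CPM on day 1 and 2577 on day 7 in the diabetic libraries and at 5344 and 2288 in the control libraries. Of the 44 genes, 41 were highest on day 1 in the diabetic series and 40 in the control series, and Cxcl9, Bst2 and Ifi44 were not in either. The same count over all genes was not made.

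**Figure D1:**
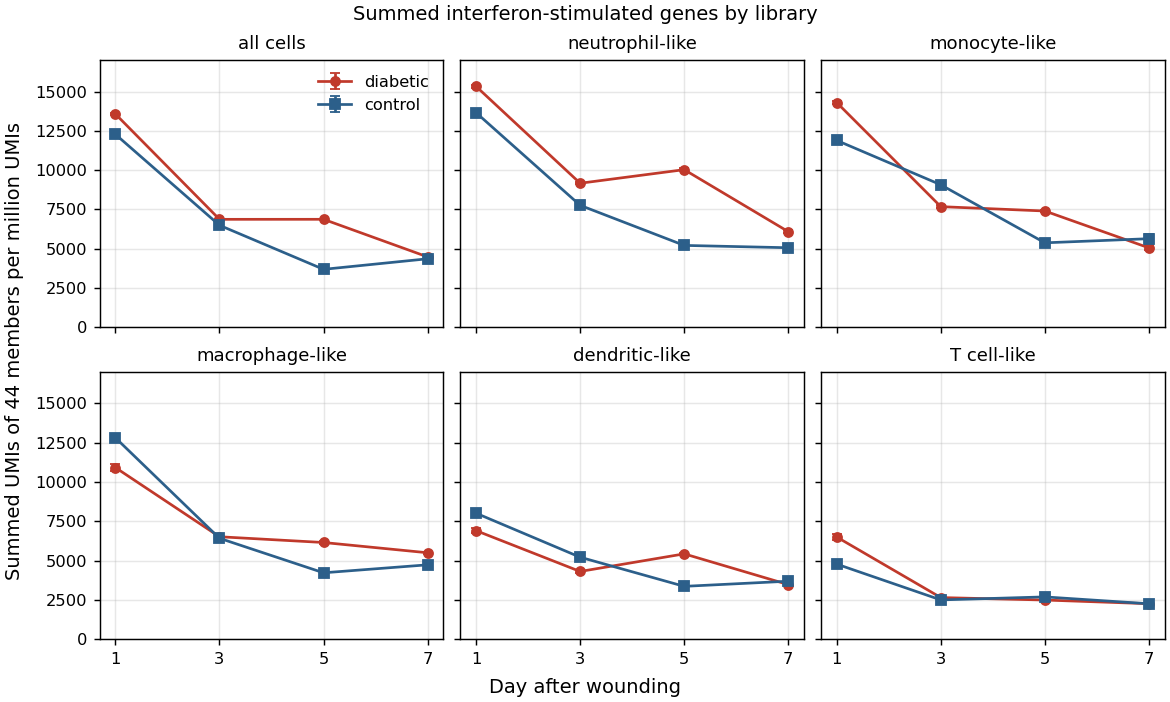
Summed UMIs of the 44 genes in CPM (y axis) against the day after wounding (x axis), in all cells and in 5 marker-defined classes, with exact Poisson 95% intervals, mostly hidden by the symbols. Every panel is highest on day 1, and in all cells the groups lie farthest apart on day 5, at 6869 against 3686.

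A straight line over the days was fitted for every gene with the group as covariate (edgeR's quasi-likelihood test, Benjamini-Hochberg adjusted p under 0.05 over 13332 genes). In all cells 36 of the 44 genes fell with the day and 0 rose, where 6.89% of all genes tested fell. The median slope of the 44 was -0.29 log2 per day, against 0.02 over all genes. Without day 1, 0 of the 44 passed, where 0 of 13818 genes did. The median slope was then -0.11 and 42 of 44 slopes were negative. An unadjusted p under 0.05 was found for 13 of the 44 (edgeR), against 1051 of 13818 genes. Without day 7, 0 of the 44 passed as well, where 1 of 13282 genes did, but the median slope was -0.39 and 43 of 44 were negative. An unadjusted p under 0.05 was then found for 41 of the 44 (edgeR), against 2901 of 13282 genes. Without the control day 5 library 34 passed, where 1032 of 13705 genes fell. In the fit with all libraries Slfn5, Phf11b, Ifit1, Oasl1, Ifih1, Bst2, Ifi44 and Cxcl9 did not pass. Whether the slope differed between the groups was tested directly: 0 of the 44 genes passed, where 0% of all genes did, with 0 at an unadjusted p under 0.05 and 0 by DESeq2. Without day 7, 0 passed as well, but 40 of 44 differences of slope were positive (a shallower fall in diabetic), with a median of 0.15 log2 per day against 0.001 with all days, and 5 had an unadjusted p under 0.05, where 915 of 13282 genes did. A p that misses the threshold does not show that the courses are the same.

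**Figure D2:**
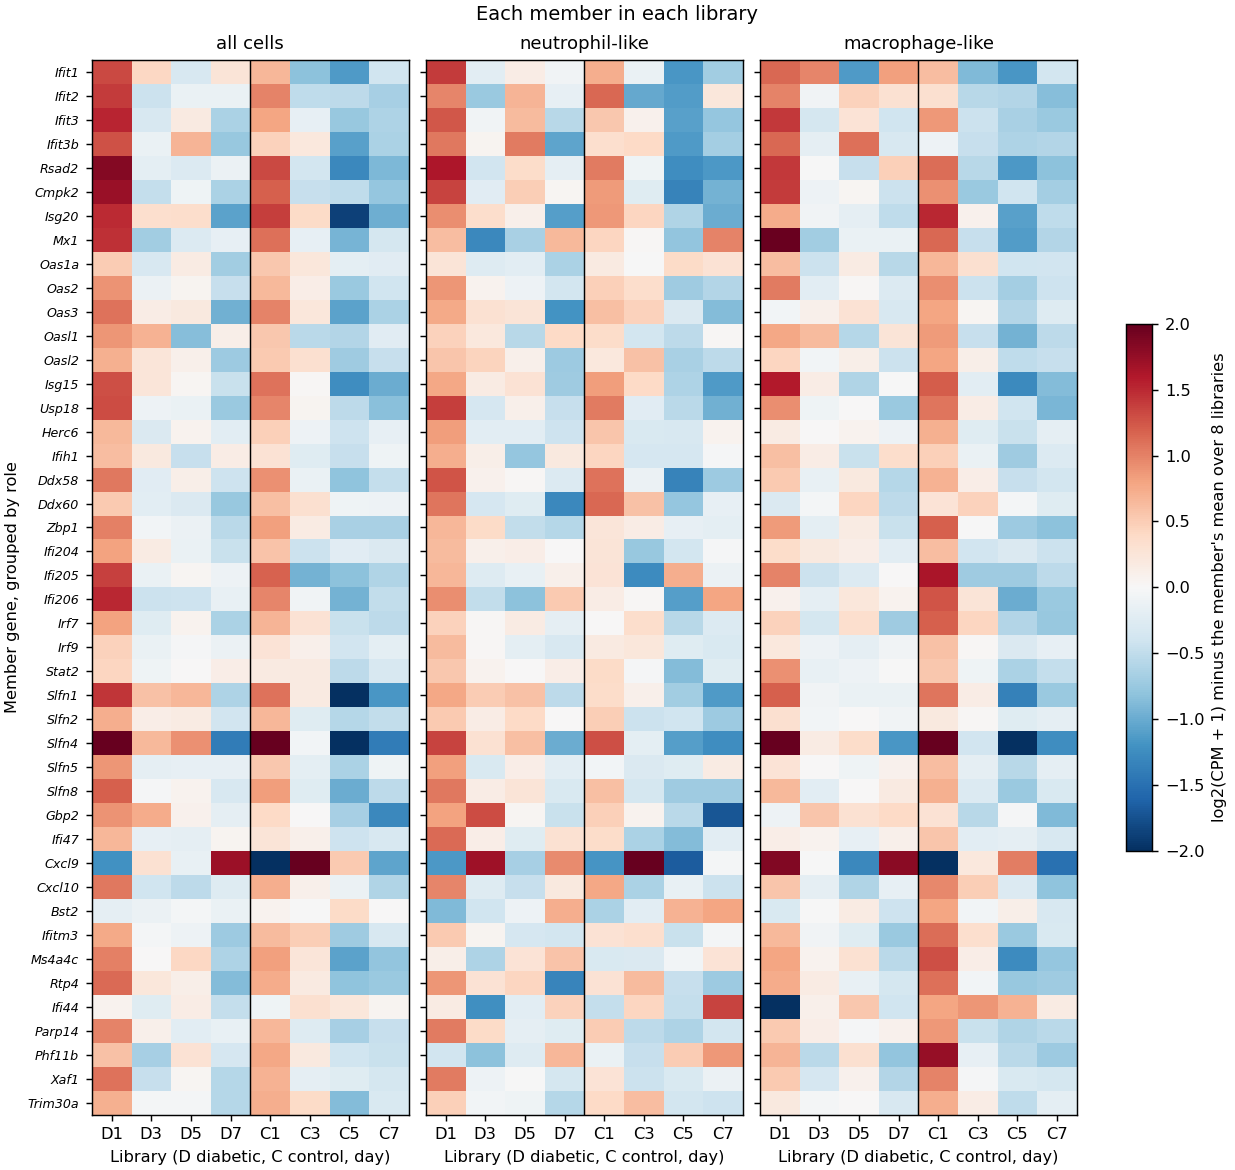
Each of the 44 genes (rows, grouped by role) in each library (columns, D diabetic and C control with the day), as log2(CPM + 1) minus the gene's mean over the 8 libraries, in all cells, neutrophil-like and macrophage-like cells. Most rows are red in the day 1 columns of both groups, and Cxcl9 and Bst2 do not follow that pattern.

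The IFIT proteins bind foreign RNA and block its translation. Ifit1, the family member with the most UMIs, stood at 179, 95.4, 56.9 and 85.1 CPM in the diabetic libraries of days 1, 3, 5 and 7 and at 114, 39.6, 32.0 and 53.3 in the control libraries. It was higher in the diabetic library on 4 of 4 days, by 1.57, 2.41, 1.78 and 1.59-fold, although the diabetic values of days 3 to 7 lie inside the control range. Ifit2 followed at 64.5, 17.6, 21.7 and 21.8 CPM in diabetic and 48.7, 16.5, 16.3 and 14.8 in control libraries. Its levels, too, were higher on all 4 days, with an interval that leaves out 1 on days 1, 5 and 7. Ifit3 (107 to 23.1 CPM diabetic, 63.4 to 21.2 control) and Ifit3b (25.9 to 5.58 and 14.3 to 4.25) crossed between the groups, each being higher in diabetic on days 1 and 5 only. Ifit2, Ifit3 and Ifit3b fell with the day, at -0.34 ± 0.08, -0.36 ± 0.07 and -0.34 ± 0.08 log2 per day (slope ± SE), and Ifit1 did not pass the test at -0.27 ± 0.08 (edgeR adjusted p = 0.059).

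Among the antiviral enzymes, Rsad2 encodes viperin, which makes a nucleotide that ends viral RNA chains. It reached 787 CPM on day 1 in the diabetic library and then 192, 182 and 203, against 555, 170, 90.2 and 118 in the control libraries. The day 1 value was the highest of its group in both series, and each diabetic value exceeded the control value of its day, by 1.13-fold on day 3 to 2.01-fold on day 5. Cmpk2, its neighbour in the genome and a nucleotide kinase of mitochondria, ran in parallel at 54.5, 11.1, 14.9 and 9.86 CPM in diabetic and 37.2, 11.1, 10.8 and 8.86 in control libraries. Both fell with the day, Rsad2 at -0.43 ± 0.09 and Cmpk2 at -0.43 ± 0.08 log2 per day. Isg20, an RNA exonuclease, measured 170, 75.4, 76.0 and 27.7 CPM in diabetic and 157, 77.7, 15.6 and 29.7 in control libraries. The groups were close on every day but day 5, where the ratio was 4.87, and the gene fell at -0.49 ± 0.09 log2 per day.

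The oligoadenylate synthetases sense double-stranded RNA and activate RNase L. Oas2 stood at 48.3, 23.4, 26.4 and 18.2 CPM in diabetic and 40.3, 28.0, 14.8 and 19.0 in control libraries, and Oas3 at 64.9, 33.4, 34.4 and 14.9 against 60.8, 35.1, 13.7 and 18.8. Both fell with the day (-0.28 ± 0.05 and -0.39 ± 0.06 log2 per day), with groups that overlap and differ most on day 5. Oasl2, a synthetase-like relative, gave 228, 166, 150 and 83.9 CPM in diabetic and 202, 175, 85.1 and 102 in control libraries and fell at -0.28 ± 0.05. Oasl1, known for holding back translation of Irf7, behaved otherwise, at 280, 246, 83.7 and 165 CPM in diabetic and 220, 104, 101 and 130 in control libraries. Its day 3 level was 2.37-fold higher in diabetic and its day 5 level lower, at 0.831 of the control, and its slope of -0.23 ± 0.07 did not pass (edgeR adjusted p = 0.07). Oas1a (74.1 to 30.9 CPM over the 8 libraries) and Mx1 (40.1 to 6.83) fell as well, and 29.5% of the 3′ words of Oas1a occur in Oas1g, which makes its count uncertain.

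Isg15 is a ubiquitin-like tag attached to proteins during the response. It gave 353, 169, 148 and 105 CPM in the diabetic libraries and 306, 146, 60.2 and 71.4 in the control libraries. All 4 diabetic values exceeded the control value of their day, by 1.15, 1.16, 2.46 and 1.47-fold, and the gene fell at -0.40 ± 0.06 log2 per day. Usp18, which removes the tag and dampens signalling at the receptor, measured 43.7, 15.9, 15.6 and 9.90 CPM in diabetic and 34.8, 17.9, 11.7 and 9.22 in control libraries. The group ranges overlapped, and it was higher in diabetic on days 1, 5 and 7, with a ratio interval that leaves out 1 on days 1 and 5. Its slope was -0.40 ± 0.05, with an edgeR adjusted p of 0.0239. Herc6, the ligase that attaches the tag in mice, lay between 32.6 and 15.2 CPM and fell at -0.20 ± 0.05.

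Of 7 sensors and PYHIN proteins 6 fell with the day. Zbp1, a sensor of left-handed nucleic acid, stood at 103, 48.7, 46.4 and 34.7 CPM in diabetic and 89.9, 56.8, 32.1 and 31.9 in control libraries (-0.33 ± 0.05 log2 per day). Ddx60, a helicase that aids RNA sensing, was the gene of this role with lower values in every diabetic library than in the control library of its day, at 30.9, 18.02, 17.01 and 12.1 against 32.5, 26.5, 19.7 and 19.5 CPM. Ifi204, a DNA-binding PYHIN protein with the most UMIs of the role, gave 442, 283, 231 and 187 CPM in diabetic and 378, 189, 216 and 207 in control libraries, and fell at -0.24 ± 0.05. Ddx58 (RIG-I) lay between 97.2 and 26.1 CPM, Ifi206 between 54.0 and 8.97 and Ifi205 between 156 and 30.4. Ifi205 shares 78.8% of its 3′ words with Ifi211 and Mndal, so its count is uncertain. Ifih1 (MDA5), at 143 to 67.5 CPM, did not pass (-0.16 ± 0.05, edgeR adjusted p = 0.0734), although its ratio was above 1 on 4 of 4 days, with an interval that holds 1 on day 5 (0.937 to 1.07).

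All 3 transcription factors fell with the day. Irf7, the factor that amplifies interferon production, stood at 183, 88.4, 110 and 67.3 CPM in diabetic and 167, 127, 76.4 and 72.4 in control libraries and fell at -0.29 ± 0.05 log2 per day. Irf9, the DNA-binding part of the complex that reads the ISRE, measured 127, 83.3, 89.7 and 84.3 CPM in diabetic and 111, 98.2, 69.9 and 79.7 in control libraries. Its slope of -0.17 ± 0.04 and that of Stat2, -0.15 ± 0.04, passed the test and were the shallowest of the 36 calls. Neither group was higher on every day for any of the 3 factors.

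Schlafen genes, a family linked to quiescence and activation of leukocytes, held Slfn2 and Slfn4, which were among the 3 genes with the most UMIs. Slfn2 stood at 2022, 1337, 1365 and 933 CPM in diabetic and 1940, 1036, 828 and 873 in control libraries. It was higher in the diabetic library on 4 of 4 days and fell at -0.26 ± 0.05 log2 per day. Slfn4 gave 3086, 1053, 1273 and 255 CPM in diabetic and 3169, 645, 75.8 and 253 in control libraries. The ratio was 0.974 on day 1 and 1.01 on day 7, while on day 5 the diabetic level was 16.8-fold higher (interval 16.1 to 17.5). Slfn4 had the steepest slope of the set, -0.66 ± 0.14. Slfn1 measured 257, 143, 150 and 61.4 CPM in diabetic and 201, 107, 20.4 and 41.8 in control libraries, with a day 5 ratio of 7.36. Slfn8 gave 128, 54.0, 58.2 and 43.9 against 98.8, 46.7, 27.3 and 37.9 CPM and was higher in diabetic on all 4 days. Slfn5, at 297, 141, 143 and 142 against 233, 139, 102 and 150 CPM, did not pass the slope test (-0.22 ± 0.06, edgeR adjusted p = 0.05004).

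Gbp2, a guanylate-binding protein that coats pathogen-containing vacuoles stood at 145, 129, 82.3 and 68.2 CPM in diabetic and 102, 77.4, 48.1 and 31.0 in control libraries. The diabetic library was higher on 4 of 4 days, by 1.42, 1.67, 1.71 and 2.20-fold, although the group ranges overlap. It had the smallest slope p of the set (-0.32 ± 0.03 log2 per day, edgeR adjusted p = 0.0173). Ifi47, an immunity-related GTPase, lay between 63.7 and 29.4 CPM and fell at -0.18 ± 0.04.

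The chemokines Cxcl9 and Cxcl10 recruit T cells through Cxcr3 and parted ways. Cxcl10 stood at 242, 87.6, 79.7 and 96.4 CPM in diabetic and 191, 124, 107 and 75.9 in control libraries and fell at -0.29 ± 0.05 log2 per day, with the diabetic library higher on days 1 and 7 and lower on days 3 and 5. Cxcl9, chiefly a target of interferon gamma, gave 2.89, 10.1, 7.18 and 28.4 CPM in diabetic and 0.903, 38.2, 12.0 and 3.37 in control libraries. It was highest on day 7 in the diabetic and on day 3 in the control series, and its ratio ran from 0.265 on day 3 to 8.45 on day 7. Its slope was 0.21 ± 0.26 (edgeR adjusted p = 0.603), and the difference of slopes between the groups did not pass either at 0.71 ± 0.53.

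Among membrane proteins, Ifitm3, which blocks virus entry, stood at 1975, 1143, 1095 and 711 CPM in diabetic and 1825, 1642, 715 and 943 in control libraries. The diabetic library was higher on days 1 and 5 and lower on days 3 and 7, and the gene fell at -0.29 ± 0.05 log2 per day. Ms4a4c, a tetraspan protein, gave 388, 192, 256 and 125 against 338, 227, 91.2 and 110 CPM (-0.34 ± 0.06). Rtp4, a receptor transporter, gave 224, 119, 110 and 54.8 against 170, 115, 57.5 and 60.2 CPM (-0.37 ± 0.05). Bst2 (tetherin), which holds budding virus on the cell, went the other way at 140, 145, 153 and 144 CPM in diabetic and 166, 158, 207 and 159 in control libraries. It varied little over the days (-0.07 ± 0.03, edgeR adjusted p = 0.154), and each diabetic value lay below the control value of its day, with no overlap between the groups.

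Of the 5 other genes 3 fell. Trim30a, a TRIM protein that restrains innate signalling, stood at 267, 160, 160 and 110 CPM in diabetic and 270, 214, 89.7 and 132 in control libraries (-0.28 ± 0.05). Parp14, a mono-ADP-ribosyltransferase, gave 211, 113, 91.7 and 94.9 against 167, 88.2, 66.5 and 76.2 CPM, higher in diabetic on 4 of 4 days, and fell at -0.27 ± 0.05. Phf11b (86.2 to 31.2 CPM, with 27.3% of its 3′ words shared with its paralogues) and Ifi44 (8.28 to 4.37 CPM) did not pass the slope test, and Xaf1 (62.8 to 19.1 CPM) fell at -0.29 ± 0.06.

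The groups were then compared with the day as block, so that the spread is that of the group difference over the 4 days. In all cells 0 of the 44 genes passed at an adjusted p of 0.05 (edgeR), where 0% of all genes passed. At an unadjusted p under 0.05 there were 9 of 44 genes by edgeR, against 1521 of all 13857, and DESeq2 called Gbp2 and Ifit1 among 80 of 12849 genes. Gbp2 was higher in diabetic wounds by 0.83 ± 0.14 log2 and Ifit1 by 0.89 ± 0.16, both with an edgeR adjusted p of 0.451. The median difference of the 44 genes was 0.29 log2, against -0.0038 over all genes, and 37 of 44 were positive. Without day 5 the median was 0.10, with 30 of 44 positive and 0 called. In all cells 11 genes (25.0% of the 44) were higher in the diabetic library on all 4 days, against 11.3% of the 10207 genes with 50 UMIs each day. They were Gbp2, Ifi205, Ifih1, Ifit1, Ifit2, Isg15, Parp14, Rsad2, Slfn1, Slfn2 and Slfn8. Bst2 and Ddx60 (4.55% of the 44) were lower on all 4, against 13.3% of those 10207 genes. With day 5 left out, 12 of the 44 (27.3%) were higher on the other 3 days, against 17.5% of all genes.

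By role, the mean log2 ratio of the summed level over the 4 days was 0.65 ± 0.18 (SD of the days) for the IFIT family, 0.59 ± 0.16 for the 2 GTPases, 0.39 ± 0.24 for the antiviral enzymes, 0.47 ± 0.43 for the ISG15 system, 0.22 ± 0.13 for the sensors and 0.52 ± 0.68 for the Schlafen family. All 6 of these roles were positive on every day. The transcription factors (0.10 ± 0.34) and the other genes (0.11 ± 0.38) were not. The mean was 0.44 ± 0.26 for the 16 core genes and 0.29 ± 0.41 for all 44, a mean below its SD. Without day 5 the mean was 0.57 ± 0.09 for the IFIT family, 0.58 ± 0.20 for the GTPases, 0.31 ± 0.05 for the core genes and 0.09 ± 0.05 for all 44. Day 5 had the largest ratio for the antiviral enzymes, the ISG15 system and the Schlafen family. The same held for the transcription factors, the other genes and the membrane proteins. Means of these roles without day 5 are lower and are not given here. Chemokines (-0.05 ± 0.66) and membrane proteins (SD 0.46 around 0) showed no consistent side, with ratios below 1 on days 3 and 5 for the former and on days 3 and 7 for the latter.

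On single days the count of genes that differed 2-fold or more between the libraries (at least 50 UMIs, ratio interval without 1, no replicate) was small except on day 5. Day 1 had 1 gene higher in diabetic, Cxcl9 (1.92% of all genes were), and 0 lower (0.808%). Day 3 had 2 higher, Ifit1 and Oasl1 (3.1% of all genes), and 1 lower, Cxcl9 (3.69%). Day 7 had 2 higher, Cxcl9 and Gbp2 (4.97%), and 0 lower (3.28%). On day 5, 9 of 44 were higher (10.7% of all genes) and 0 lower (16.5%), namely Ifit3b, Isg15, Isg20, Ms4a4c, Oas3, Rsad2, Slfn1, Slfn4 and Slfn8. The median log2 ratio of the 44 on day 5 was 0.60, against -0.23 over all genes. Within neutrophil-like cells Slfn4 stood at 3595 against 1108 CPM on that day, a smaller gap than the 1273 against 75.8 CPM of all cells, whose share of neutrophil-like cells differed.

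**Figure D3:**
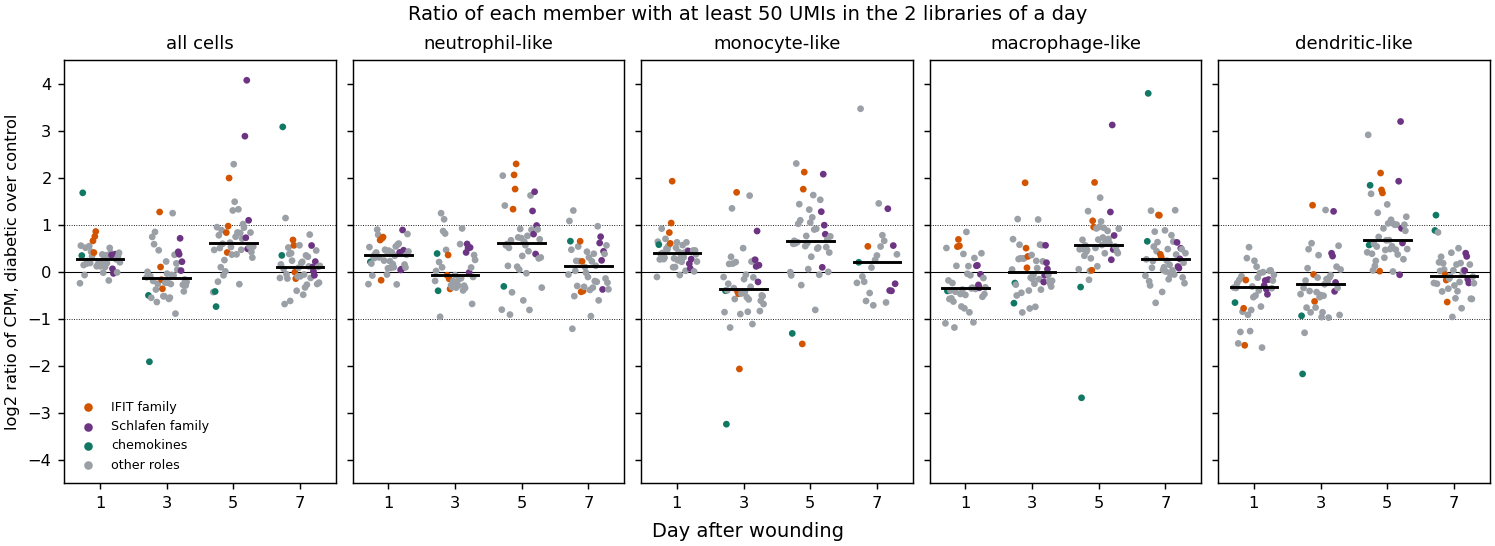
The log2 ratio of CPM, diabetic over control (y axis), by day (x axis) for each gene with at least 50 UMIs in both libraries of the day together, in all cells and 4 classes, with black bars at the median and dotted lines at 2-fold. The median lies highest on day 5 in every panel, at 0.60 in all cells.

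The classes were drawn from clusters made without interferon-induced genes and named by markers, so that the genes described here had no part in them. Neutrophil-like cells (269 to 2685 per library), monocyte-like cells (25 to 1244), macrophage-like cells (186 to 2377), dendritic-like cells (118 to 608) and T cell-like cells were compared. A cluster of 3648 cells led by Gm26917 and Malat1 stayed unnamed. A doublet caller marked only 105 cells (0.298%), too few for its calls to be relied on. Doublets were left out only in an alternative run of the summed level.

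In neutrophil-like cells the sum was 15328, 9164, 10028 and 6083 CPM in the diabetic libraries and 13657, 7760, 5209 and 5060 in the control libraries, higher in diabetic on 4 of 4 days by 1.12, 1.18, 1.93 and 1.20-fold. The mean log2 ratio was 0.40 ± 0.36, or 0.22 ± 0.05 without day 5, when the control class had 269 cells. In monocyte-like cells it was 14300, 7675, 7397 and 5051 against 11890, 9066, 5373 and 5636 CPM, with a mean log2 ratio of 0.08 ± 0.34 that became -0.04 without day 5. Macrophage-like cells gave 10916, 6514, 6147 and 5494 against 12813, 6416, 4220 and 4728 CPM, that is, lower in diabetic on day 1 and higher on days 5 and 7 (0.14 ± 0.33, and 0.0025 without day 5). Dendritic-like cells gave 6903, 4304, 5424 and 3468 against 8012, 5212, 3357 and 3685 CPM (0.03 ± 0.45, and -0.19 without day 5). T cell-like cells had the lowest sums, from 6496 on day 1 to 2253 on day 7 in diabetic and from 4772 to 2250 in control libraries. Much of each sum came from Slfn2, Ifitm3 and Slfn4. Without these 3 genes the mean log2 ratio was 0.30 ± 0.29 in neutrophil-like, 0.25 ± 0.24 in monocyte-like, 0.24 ± 0.33 in macrophage-like and -0.03 ± 0.50 in dendritic-like cells. In each of these classes the ratio was largest on day 5, at 3336 against 2100 CPM in neutrophil-like and 3564 against 2465 in macrophage-like cells. The means are therefore lower without that day. For the 16 core genes the mean log2 ratio was 0.35 ± 0.45, 0.38 ± 0.21, 0.51 ± 0.26 and 0.01 ± 0.65 in the same order. In neutrophil-like cells the core ratio, too, was largest on day 5, and the core mean is lower without it. The core sum was higher in diabetic on 4 of 4 days in monocyte-like (by 1.46, 1.15, 1.15 and 1.48-fold) and macrophage-like cells (by 1.11, 1.43, 1.56 and 1.68-fold), and in neutrophil-like cells on all days but day 3 (1.26, 0.907, 1.94 and 1.20). The difference between classes was not tested.

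The fall with the day was present within classes too. In neutrophil-like cells 37 of 44 genes fell (21.7% of all genes did), in monocyte-like cells 28 (0.836%), in macrophage-like cells 15 (0.881%) and in dendritic-like cells 0 (0.063%), with 0 rising in any of them. In dendritic-like cells all 44 slopes were negative. Of these, 30 had an unadjusted p under 0.05 (edgeR), where 1107 of 9525 genes did, and DESeq2 called 9, where 66 of 11231 genes fell. Median slopes were -0.32, -0.31, -0.17 and -0.15 log2 per day. Without day 1 the counts were 10, 0, 0 and 0, where 505 of 10491, 0 of 8736, 0 of 11372 and 0 of 9950 genes fell. Without day 7 they were 13, 4, 14 and 0, where 87 of 10254, 9 of 9959, 112 of 10077 and 5 of 9448 genes fell. Median slopes were -0.21, -0.18, -0.07 and -0.10 without day 1, with 9 of 44 positive in macrophage-like cells, and -0.40, -0.34, -0.27 and -0.15 without day 7. Without day 5 the monocyte-like count was 17 (43 of 9646 genes fell) and the dendritic-like count 3 (18 of 9719), and without day 3 the macrophage-like count was 24 (184 of 10759) and the dendritic-like count 8 (33 of 9377).

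Within neutrophil-like cells the smallest slope p values belonged to Gbp2 and Isg20. Gbp2 stood at 162, 230, 94.7 and 67.4 CPM in diabetic and 129, 97.4, 63.1 and 27.4 in control neutrophil-like cells (-0.49 ± 0.06 log2 per day, edgeR adjusted p = 0.000203). Isg20 gave 287, 191, 161 and 69.1 against 273, 201, 98.4 and 74.8 CPM (-0.49 ± 0.06). For Gbp2 the diabetic value was higher on 4 of 4 days, while the groups crossed for Isg20. Zbp1, Oas3, Oas2, Isg15, Irf9, Ddx60, Slfn8 and Usp18 came next, with slopes from -0.29 to -0.49. Without day 1, the neutrophil-like calls left were Gbp2, Isg15, Isg20, Oas2, Oas3, Oasl2, Rtp4, Slfn1, Trim30a and Zbp1.

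The other 8 of the 10 neutrophil-like calls with the smallest p had these levels on days 1, 3, 5 and 7. The sensor Zbp1 stood at 56.9, 46.8, 24.9 and 23.7 CPM in diabetic and 42.3, 39.4, 31.6 and 30.8 in control libraries. Oas3 stood at 94.9, 69.04, 67.1 and 23.7 CPM in diabetic and 84.99, 77.1, 45.5 and 30.03 in control libraries. Oas2 gave 60.9, 34.3, 30.3 and 25.1 CPM in diabetic and 45.8, 42.2, 19.5 and 21.5 in control libraries. Each of these 3 genes was highest on day 1 in both groups, and their group ranges overlapped. Isg15 measured 308, 203, 219 and 109 CPM in diabetic and 322, 237, 117 and 81.6 in control libraries. Irf9 measured 137, 89.7, 77.5 and 70.8 CPM in diabetic and 101, 103, 75.2 and 71.96 in control libraries. Ddx60 gave 45.7, 16.7, 17.8 and 8.13 CPM in diabetic and 48.5, 32.5, 12.1 and 18.9 in control libraries. None of the 3 was higher in the diabetic cells on all 4 days. Slfn8 stood at 122, 64.8, 69.6 and 47.1 CPM in diabetic and 89.02, 45.4, 35.3 and 34.9 in control libraries and was higher in diabetic cells on 4 of 4 days. Usp18 stood at 41.3, 11.9, 16.5 and 10.8 CPM in diabetic and 32.2, 12.9, 10.2 and 7.37 in control libraries and was higher in diabetic cells on 3. Slfn4, whose slope was -0.56 ± 0.09, stood at 6039, 2919, 3595 and 1186 CPM in diabetic and 5814, 2064, 1108 and 1005 in control libraries, also higher in diabetic cells on 4 of 4 days.

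In monocyte-like cells Ifit2 had the steepest call of any class, at 108, 22.6, 12.5 and 2.52 CPM in diabetic and 71.5, 30.3, 3.72 and 4.49 in control libraries (-0.84 ± 0.07 log2 per day, edgeR adjusted p = 0.000489). The last values rest on few cells, 135 diabetic and 25 control on day 7. Usp18, Zbp1, Isg20, Rsad2, Trim30a, Irf7, Parp14, Cmpk2 and Phf11b followed, at -0.25 to -0.57. In macrophage-like cells the smallest p was that of Usp18, at 37.4, 17.9, 19.2 and 11.04 CPM in diabetic and 41.2, 21.4, 14.2 and 9.69 in control libraries (-0.30 ± 0.04, edgeR adjusted p = 0.01). Rtp4, Ifitm3, Slfn4, Zbp1, Isg15, Ms4a4c, Oasl2, Cxcl10 and Isg20 followed. The steepest of these was Slfn4 at -0.61 ± 0.11. The neutrophil transcript S100a8 in macrophage-like cells stood at 1302, 1001, 612 and 445 CPM in diabetic and 1217, 555, 75.6 and 575 in control libraries, and its part in the Slfn4 slope was not tested.

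Of the further monocyte-like calls, Usp18 stood at 52.01, 20.2, 12.3 and 7.57 CPM in diabetic and 38.1, 28.6, 12.4 and 4.49 in control libraries. Zbp1 gave 148, 63.9, 62.5 and 22.7 CPM in diabetic and 128, 103, 37.2 and 22.5 in control libraries. Isg20 gave 116, 36.4, 40.2 and 10.1 CPM in diabetic and 75.4, 40.6, 16.1 and 13.5 in control libraries. The group ranges of all 3 overlapped. Rsad2 measured 973, 233, 150 and 156 CPM in diabetic and 632, 254, 158 and 98.8 in control libraries. Trim30a measured 223, 127, 127 and 52.1 CPM in diabetic and 223, 196, 79.4 and 40.4 in control libraries. Irf7 measured 259, 106, 136 and 42.9 CPM in diabetic and 213, 147, 80.6 and 40.4 in control libraries. Rsad2 was higher in the diabetic cells on 2 of 4 days, while Trim30a and Irf7 were higher on 3. Parp14 stood at 284, 152, 122 and 115 CPM in diabetic and 215, 131, 86.8 and 67.4 in control libraries and was higher in diabetic cells on 4 of 4 days. Cmpk2 stood at 79.1, 11.2, 10.6 and 10.9 CPM in diabetic and 50.9, 20.3, 11.2 and 4.49 in control libraries. Phf11b stood at 122, 41.2, 58.3 and 26.9 CPM in diabetic and 120, 89.2, 40.9 and 26.95 in control libraries. Both were higher in the diabetic cells on 2 days.

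Of the further macrophage-like calls, Rtp4 stood at 167, 112, 89.2 and 78.03 CPM in diabetic and 216, 95.97, 58.6 and 60.7 in control libraries. Ifitm3 gave 2029, 1244, 1098 and 777 CPM in diabetic and 2823, 1646, 775 and 1049 in control libraries. Slfn4 gave 1461, 321, 369 and 127 CPM in diabetic and 1779, 218, 42.5 and 120 in control libraries. Ifitm3 was higher in the diabetic cells on 1 of 4 days, and Rtp4 and Slfn4 on 3. Zbp1 measured 112, 53.5, 69.2 and 45.2 CPM in diabetic and 142, 61.3, 36.7 and 34.4 in control libraries. Ms4a4c measured 389, 234, 275 and 153 CPM in diabetic and 548, 246, 92.5 and 131 in control libraries. Oasl2 measured 203, 145, 164 and 111 CPM in diabetic and 261, 163, 106 and 109 in control libraries. These 3 were higher in the diabetic cells on 2 days each. Cxcl10 stood at 232, 140, 104 and 141 CPM in diabetic and 308, 223, 131 and 90.5 in control libraries and was higher in diabetic cells on 1 day. Isg20 stood at 47.6, 26.8, 24.5 and 19.4 CPM in diabetic and 81.8, 29.9, 12.7 and 19.3 in control libraries and was higher on 2.

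Between the groups, 0 genes passed in neutrophil-like (0.0185% of all genes), monocyte-like (0%), macrophage-like (0.0802%) and dendritic-like cells (0.0101%), with 12, 8, 13 and 1 of 44 at an unadjusted p under 0.05 (edgeR), where 1200 of 10828, 517 of 9897, 1345 of 11227 and 594 of 9932 genes were. The median difference was 0.38, 0.30, 0.21 and 0.03 log2. It was 0.41, 0.17, 0.38 and 0.10 without day 1, 0.49, 0.46, 0.21 and 0.06 without day 3, and 0.37, 0.22, 0.15 and 0.01 without day 7. Without day 5, 0 passed as well, 7, 7, 15 and 11 of 44 had an unadjusted p under 0.05 (959 of 10590, 377 of 9646, 1111 of 11018 and 594 of 9719 genes) and the median was 0.16, 0.14, 0.08 and -0.30. In dendritic-like cells 36 of 44 differences were then negative, against 21 with all days. DESeq2 called Gbp2 in neutrophil-like cells, 0 in monocyte-like (where it gave an adjusted p for 25 of the 44), Ifit1, Ifit2, Isg15 and Rsad2 in macrophage-like and 0 in dendritic-like cells, where it called 60 of 7220, 13 of 2491, 128 of 9970 and 10 of 6883 genes. Gbp2 was higher in diabetic neutrophil-like cells by 1.03 ± 0.25 log2 (edgeR adjusted p = 0.259) and passed when day 1 was left out. In that fit 63 of 10491 genes passed, against 2 of 10828 with all days. Genes at least 2-fold higher on day 5 numbered 9 of 40 in neutrophil-like (5.13% of all genes), 13 of 41 in monocyte-like (4.21%), 7 of 44 in macrophage-like (2.61%) and 14 of 43 in dendritic-like cells (3.12%). Slfn1, Slfn4 and Ifit2 were among them in all 4 classes at the limit of 50 UMIs in both libraries together, which a gene can pass through the higher library alone. With a limit of 200 UMIs Slfn4 remained in all 4, Slfn1 not in dendritic-like cells and Ifit2 in macrophage-like cells only. At 50 UMIs Cxcl10 and Ifit1 were lower in monocyte-like and Cxcl9 in macrophage-like cells. On that day S100a8, a neutrophil transcript, was also higher in the diabetic libraries of the other 3 classes, at 504 against 140 CPM in monocyte-like, 612 against 75.6 in macrophage-like and 506 against 53.7 in dendritic-like cells, and its part in the day 5 counts was not tested. Each of these day 5 counts sets 1 library against 1.

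In macrophage-like cells the summed level of the IFIT family was 1.51, 2.23, 1.73 and 2.02-fold higher in diabetic libraries on days 1, 3, 5 and 7 (mean log2 ratio 0.89 ± 0.25, and 0.92 ± 0.29 without day 5). This class mixed clusters. On day 3 core genes stood at 2521 CPM in diabetic and 1517 in control cells of the cluster led by Retnla, Ccl8 and Lyve1. In that led by Ms4a7, Pf4 and Fcrls they stood at 1166 and 886 CPM. On days 1, 3, 5 and 7 the former held 32 of 186, 207 of 888, 29 of 261 and 122 of 1057 diabetic cells. In control libraries it held 31 of 263, 98 of 647, 295 of 1667 and 144 of 2377. The part of this mix was not tested. Ifit2 stood at 69.8, 33.1, 48.2 and 43.2 CPM in diabetic and 43.5, 23.4, 22.8 and 18.8 in control macrophage-like cells. Each diabetic value exceeded the control value of its day, the ranges overlapped, and the difference was 0.89 ± 0.15 log2 (edgeR adjusted p = 0.0979). Isg15 gave 419, 153, 91.5 and 138 against 323, 120, 57.0 and 75.4 CPM (0.58 ± 0.12, adjusted p = 0.122 by edgeR). Rsad2 gave 697, 262, 190 and 365 against 571, 177, 118 and 148 CPM (0.72 ± 0.15, adjusted p = 0.122 by edgeR). Ifit1 gave 180, 160, 36.1 and 143 against 125, 43.1, 35.4 and 62.1 CPM (0.96 ± 0.24, adjusted p = 0.174 by edgeR). In this class 9 genes were higher in diabetic on all 4 days, namely Cmpk2, Ifih1, Ifit1, Ifit2, Ifit3, Ifit3b, Isg15, Oas2 and Rsad2, and Slfn4, Ifitm3 and Irf7 were not. Of the 41 with at least 50 UMIs on each day, 8 were (19.5%), against 11.9% of all genes. With day 5 left out the share was again 8 of 41, against 17.3% of all genes, near the background. In neutrophil-like cells 27.5% of the genes with 50 UMIs each day were higher on 4 of 4 days (9.48% of all genes), in monocyte-like cells 17.4% (8.72%) and in dendritic-like cells 2.63% (10.2%).

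Levels differed by class in a gene-specific way. Across the 8 libraries 6 genes were highest in neutrophil-like cells every time: Ifit3b, Isg20, Oas3, Slfn1, Slfn4 and Trim30a. Slfn4 averaged 2966 CPM there against 585 in monocyte-like, 555 in macrophage-like and 219 in dendritic-like cells, and Isg20 averaged 169 against 43.5, 32.7 and 48.8. Ifi47 was highest in T cell-like cells in all 8 libraries (86.5 against 27.4 to 39.2 CPM in the other classes) and Ifi44 in dendritic-like cells in all 8 (14.7 against 2.07 to 7.34). Oasl1 and Ifih1 were highest in macrophage-like cells in 6 of 8 libraries, Irf7 in 7, and Ms4a4c and Ifi205 in monocyte-like cells in 6. Rsad2 averaged 317, 332, 316 and 101 CPM and Isg15 199.8, 199.6, 172 and 132.5 in neutrophil-like, monocyte-like, macrophage-like and dendritic-like cells. By library, Rsad2 in macrophage-like cells ran from 57.4 to 162% and in monocyte-like cells from 45.4 to 146% of its neutrophil-like level.

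**Figure D4:**
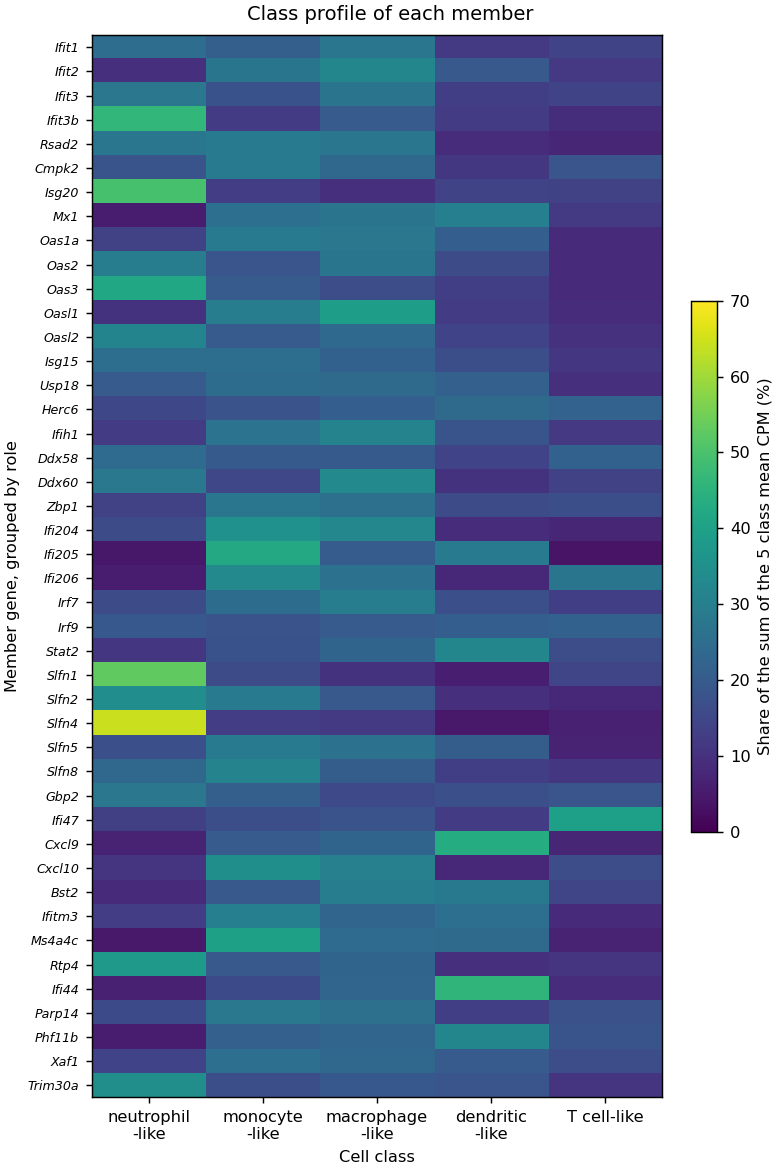
Each gene's mean CPM over the 8 libraries in 5 classes, as its percentage of the sum of the 5 class means (colour), genes in rows grouped by role. Slfn4, Slfn1, Isg20 and Ifit3b are brightest in neutrophil-like cells, Ifi44 and Cxcl9 in dendritic-like and Ifi47 in T cell-like cells.

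Free RNA from lysed cells gives UMIs in cells that do not express a gene, and T cell-like cells served as the gauge. The neutrophil transcript S100a8 stood in them at 2.39 to 10.1% of its neutrophil-like level (median 7.03%). Slfn4 stood at 1.21 to 14.4% (median 7.48%), and on day 1 it lay above S100a8 of the same library, at 14.4% against 7.35% in diabetic and 11.4% against 7.76% in control cells. In dendritic-like cells Slfn4 stood at 2.23 to 9.96% and S100a8 at 1.09 to 10.8%. There Slfn4 was above S100a8 on day 1, at 7.39% against 4.73% in diabetic and 9.96% against 5.42% in control cells, and below it on day 7 in control cells, at 7.14% against 10.8%. In macrophage-like cells it was at 3.83 to 30.6% (median 10.8%) and in monocyte-like cells at 11 to 25.3% (median 14.7%), where S100a8 stood at 1.54 to 11.7% and 2.85 to 10.1%. Rsad2 was at 11.6 to 35.3% in T cell-like cells and Isg20 at 12.9 to 49.0%, above S100a8. The part of free RNA in the group and day differences was not tested.

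Cells were then counted singly after thinning each to 1000 UMIs. Cells with fewer UMIs were left out, so that 4070 of 4779, 4872 of 5440, 3787 of 4191 and 3217 of 3656 diabetic cells and 3985 of 4412, 4155 of 4811, 2824 of 3273 and 4628 of 4653 control cells were used on days 1, 3, 5 and 7. Of the cells used, those with at least 5 core UMIs made up 15.6, 6.12, 4.60 and 3.95% in the diabetic libraries and 12.0, 5.80, 2.59 and 2.53% in the control libraries. The diabetic share was higher on 4 of 4 days, by 1.85 ± 1.40 percentage points (1.80 ± 1.70 without day 5), and day 1 was highest in both groups. With a limit of 10 core UMIs the diabetic share of day 3 was the lower one, at 1.15 against 1.54%. The shares depend on depth: without thinning they were 38.0, 30.6, 25.4 and 23.6% in diabetic and 35.2, 23.7, 28.8 and 28.8% in control libraries, lower in diabetic on days 5 and 7, with a mean difference of 0.248 percentage points. In diabetic wounds of day 1, 63.5% of monocyte-like and 64.5% of macrophage-like cells then held 5 core UMIs, against 61.2 and 62.4% in control wounds. At the thinned depth, the 10% of cells with the most core UMIs gave 42.4 to 71.4% of core UMIs in every library of the 5 classes, and no core UMI was left in 29.5 to 78.2% of cells.

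**Figure D5:**
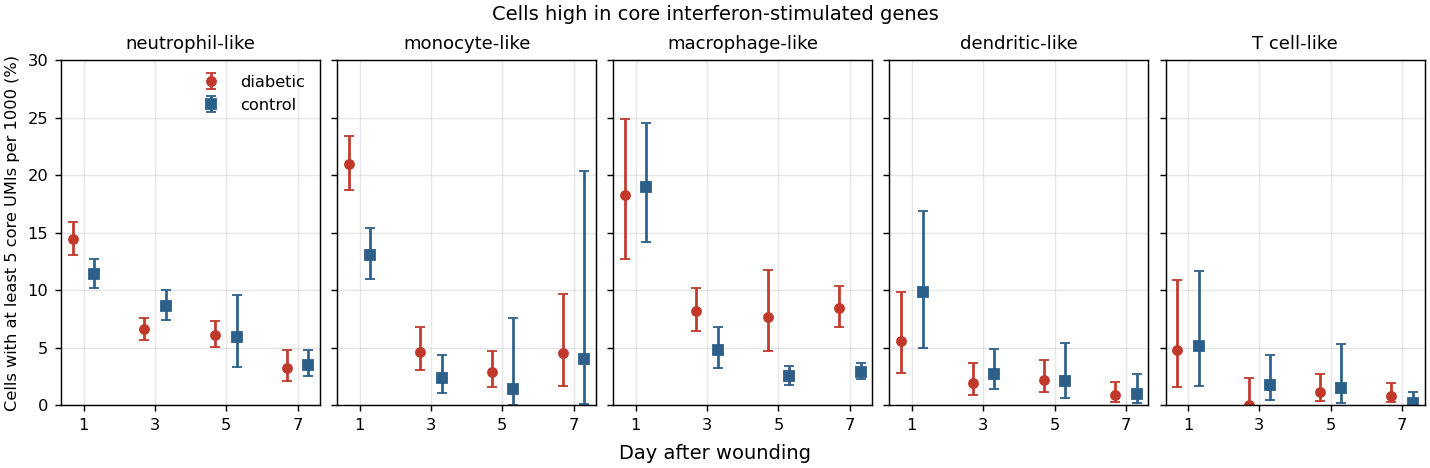
Percentage of cells with at least 5 UMIs of the 16 core genes after thinning to 1000 UMIs (y axis) by day (x axis) in 5 classes, with exact binomial 95% intervals. Monocyte-like cells of day 1 reach 20.96% in the diabetic and 13.1% in the control library, and diabetic macrophage-like cells lie above control ones on days 3, 5 and 7.

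Macrophage-like cells with 5 core UMIs made up 18.2, 8.17, 7.69 and 8.44% in diabetic and 19.0, 4.77, 2.50 and 2.88% in control libraries. On days 1 and 3 the intervals overlap (12.7 to 24.9% and 14.2 to 24.6%, and 6.41 to 10.2% and 3.22 to 6.78%). On days 5 and 7 they do not (4.70 to 11.7% against 1.79 to 3.38%, and 6.77 to 10.4% against 2.24 to 3.64%). Over the days the difference was 3.35 ± 2.89 percentage points (2.73 ± 3.20 without day 5), higher on 3 of 4 days. Monocyte-like cells gave 20.96, 4.66, 2.87 and 4.55% in diabetic and 13.1, 2.33, 1.41 and 4.00% in control libraries, where the last control share is 1 of 25 cells. The difference of 3.06 ± 3.30 points is smaller than its spread. Neutrophil-like cells gave 14.4, 6.58, 6.11 and 3.24% against 11.4, 8.62, 5.93 and 3.51% (0.23 ± 2.12 points), with the diabetic share higher on days 1 and 5. Dendritic-like cells gave 5.61, 1.96, 2.19 and 0.867% against 9.82, 2.74, 2.13 and 0.923% (-1.25 ± 2.01 points).

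Libraries with at least 20 cells holding an Rsad2 UMI were looked at in neutrophil-like, monocyte-like and macrophage-like cells. In each, Ifit1 and Isg15 were detected more often in the cells with an Rsad2 UMI than in the others. So was Oasl1, except in monocyte-like cells of the diabetic day 3 library (21.9% and 22.2%). Among diabetic neutrophil-like cells of day 1, Ifit1 was detected in 29.5% of cells with an Rsad2 UMI and in 4.05% of the others, and Isg15 in 42.4% and 13.3%. Control cells of day 1 gave 23.8% and 2.98% for Ifit1 and 43.2% and 13.8% for Isg15. Slfn4 was detected in 95.2% and 86.7% of these diabetic cells and Bst2 in 3.66% and 2.17%, a narrower split for both. In diabetic macrophage-like cells of day 7, Ifit1 was detected in 27.2% of cells with Rsad2 and 5.11% of the others, and Oasl1 in 42.0% and 18.3%. Cells of 1 library are not replicates, and no test was made.

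When clusters were drawn with the interferon-induced genes, 2 of them were led by these genes. Classes here are those of the same clustering, which differ in part from the classes above. The first, of 1250 neutrophil-like cells led by Slfn4, Rsad2 and Ifit1, held 17.9, 6.91, 5.93 and 2.99% of the class in diabetic and 14.1, 4.29, 4.12 and 1.77% in control libraries, higher in diabetic on each day and highest on day 1. The other, of 1547 monocyte-like cells led by Ifit2, Rsad2 and Ifi205, held 27.4, 35.05, 16.6 and 34.7% against 29.9, 27.9, 25.9 and 52.5% and had no such order. The monocyte-like class of this clustering had 40 to 1728 cells per library, and the last share is 21 of 40 cells. Since these genes defined the clusters, the sizes are a description.

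Of the ligands, Ifnb1, which encodes interferon beta, stood at 24.2, 4.18, 0.839 and 7.86 CPM in diabetic and 20.1, 0.838, 1.597 and 3.25 in control libraries. It was highest on day 1 in both groups, as the summed genes were, and did not pass any edgeR test in the classes where it was tested. Macrophage-like cells had more of it, at 62.7, 8.68, 1.34 and 15.4 CPM in diabetic and 52.0, 1.40, 2.28 and 4.69 in control libraries, and monocyte-like cells 38.2 and 31.8 CPM on day 1. Ifnk left 14 UMIs over all libraries, Ifna4 9, Ifna1 and Ifnl2 1 each and Ifnl3 0. Ifng, made by T and NK cells, gave 2.15, 3.56, 14.4 and 21.6 CPM in diabetic and 3.24, 14.6, 3.601 and 10.01 in control libraries. Its highest day was the same as that of Cxcl9 in each group, day 7 in diabetic and day 3 in control.

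Some other genes of the pathway passed the slope test in all cells, where 918 of 13332 genes fell and 460 rose. The receptor genes Ifnar1 (202 to 96.4 CPM over the 8 libraries) and Ifnar2 (112 to 70.6), Irf1 (185 to 105) and the inhibitors Socs1 (36.6 to 22.0) and Socs3 (490 to 237) did not pass the slope test in all cells. Within neutrophil-like cells, where 2211 of 10187 genes fell and 2044 rose, Ifnar1, Ifnar2, Irf1 and Socs1 fell, and within macrophage-like cells, where 95 of 10786 fell and 157 rose, Socs3, Ifng, Ifngr1 and Irf8 rose and Myd88 fell. In neutrophil-like cells 4 of 6 receptors and 4 of 6 inhibitors fell and 0 rose, 3 of 5 regulatory factors fell and 1 rose, and 5 of 11 sensors and adaptors fell and 2 rose. In all cells, of 6 receptors 1 fell, Ifnlr1 (10.97 to 0.476 CPM), and of 5 interferon regulatory factors outside the set 1 rose, Irf8 (57.1 to 283 CPM). Among 12 sensors and adaptors Dhx58, Myd88 and Tbk1 fell and Mavs rose, and of 6 inhibitors Samhd1 fell (edgeR, all cells). A further 72 interferon-induced genes that could be tested held 30 that fell and 0 that rose, with a median slope of -0.15 log2 per day. In none of these lists did a gene pass between the groups in all cells, and in macrophage-like cells Jak2, a kinase of the interferon gamma receptor, stood at 190, 165, 160 and 222 CPM in diabetic and 136, 97.2, 76.7 and 98.4 in control libraries. It passed at 0.89 ± 0.13 log2 (edgeR adjusted p = 0.0408), one of 9 of 11227 genes to do so there and the single call of these lists between the groups in the 4 classes tested.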

How the data were processed

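CD45+ cells of 8 pooled libraries were profiled with a bead-based microwell system that tags the 3′ end of transcripts. The authors trimmed reads with fastp (0.20.1 in the submitters' processing notes, which name the mm9 build), mapped them with STAR to Ensembl release 92 per the methods, and deposited UMI counts per gene and cell, made with UMI-tools. Counts were taken as deposited. Cells with over 200 genes and at most 20% mitochondrial UMIs were kept (35215 of 38959), mitochondrial genes were left out, and cells were clustered without interferon-induced genes (scanpy 1.11.5: 2000 variable genes, 10 components, 30 neighbours, Leiden resolution 0.8) and named by markers. Names were the same for 90.9% of cells when those genes were used and for 66.8% when each cell was named singly.

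UMIs were summed by library and class (at least 20 cells) and tested with edgeR 4.0.16 (quasi-likelihood, Benjamini-Hochberg over all genes) for group with day as block, for slope per day with group as covariate, and for their interaction; DESeq2 1.42.0 was an alternative. Tested on simulated data for all cells, the group fit recovered 99.5% of 200 genes changed by 2 log2 units, the slope fit 100% and the interaction fit 85% of 200 genes changed by 0.667 log2 per day. In the data the 44 genes had a median group difference of 0.29 log2 and a median slope of -0.29 log2 per day. The recovery of changes of that size was not simulated, so these rates do not bear on calls that were missed. Intervals are exact (95%) and cover counting error only. Levels carry no length term, so levels of different genes are not compared. Alternatives were the filter, the scaling, the tool, the naming of cells, the removal of called doublets, other limits and leaving out each day.

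All 44 genes are accounted for. Values in every library are given for the 10 with the most UMIs, for each role's member with the most UMIs and for up to 10 called with the smallest p in each fit, with further genes as examples of their role. The genes and lists were chosen with earlier results of these data known. Libraries pool 5 mice, and barcodes are serial numbers, so barcodes shared between libraries could not be counted; 0 cells had identical counts. A gene of the pathway list is not reported here.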

Additional observations from a re-analysis of the deposited data

How the results depend on the processing

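The summed level moved by less than its SD over the days in all 53 alternatives run, and by role in all 24. Leaving out a single day cannot move a mean of the days by that much. All 24 by role and some of the 53 were of that kind, so these counts say little about stability. The mean changed direction without day 5 in monocyte-like and dendritic-like cells. With cells named singly the median group difference in dendritic-like cells was 0.18, with 34 of 44 positive, against 0.03 and 23. In neutrophil-like cells it was 0.24, with 31 of 43 positive, against 0.38 and 38 of 44. In monocyte-like and macrophage-like cells it was 0.21 and 0.15, against 0.30 and 0.21. Calls between the groups moved in 8 of 39: DESeq2 called 2 genes in all cells, 1 in neutrophil-like and 4 in macrophage-like cells. With no filter on low counts 1 was called in neutrophil-like, 3 in monocyte-like, 8 in macrophage-like and 1 in dendritic-like cells, where 217 of 18095, 66 of 16951, 354 of 19348 and 121 of 17251 genes were. Leaving out each day in turn gave 0 to 1 in neutrophil-like cells, the 1 being Gbp2 without day 1, where 63 of 10491 genes passed. Calls over the days moved in 16 of 40. Leaving out each day gave 0 to 35 in all cells, 10 to 37 in neutrophil-like, 0 to 37 in monocyte-like, 0 to 24 in macrophage-like and 0 to 8 in dendritic-like cells, where fewer libraries were tested. Each upper end was reached without day 3, where 654 of 13646, 2124 of 10656, 184 of 9437, 184 of 10759 and 33 of 9377 genes fell. With no filter 26 fell in macrophage-like and 20 in dendritic-like cells, where 225 of 19348 and 125 of 17251 genes did. By DESeq2 the counts were 23 and 9, where 265 of 12221 and 66 of 11231 genes fell. Without the control day 5 library 1 fell in dendritic-like cells, where 18 of 10028 genes did. Single slopes were followed for up to 10 called genes with the smallest p in each fit. Over the alternatives 257 stayed on their side of the threshold, 63 no longer passed and 0 reversed. The losses came without day 1 or day 7, but for 1 in monocyte-like and 1 in macrophage-like cells without day 5. A minimum of 200 UMIs gave 0 of 43 genes 2-fold higher on day 1 in all cells, where 57 of 7826 of all genes were. On day 5 it gave 7 of 29 in monocyte-like (97 of 3912) and 6 of 29 in dendritic-like cells (64 of 4254). Without thinning, the difference in cells with 5 core UMIs was 0.248 percentage points in all cells, 6.67 in monocyte-like and 7.07 in macrophage-like cells. Where no construction shows it, the cause was not tested. The group fit paired the libraries of a day through the day block; each group and day has 1 library, so no replicate number could be used as a block. With 1 library per group and day, depth limits genes of few UMIs, such as Cxcl9 on day 1 (55 and 17 UMIs).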
